A study of Homo sapiens with 4 samples.

Results

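The genes described here are the ERBB receptors and the epidermal growth factor (EGF) family ligands that bind them, in gastric cancer cells in which the homeobox transcription factor HOXB9 was knocked down. The 10 members were chosen by symbol, because both groups had earlier been linked to HOXB9, and each had 1 row among the 57815 rows of the expression matrix: the 4 receptors EGFR, ERBB2, ERBB3 and ERBB4, and the 6 ligands AREG, EREG, TGFA, HBEGF, NRG1 and BTC. The data are 4 RNA-seq libraries of polyadenylated RNA from AGS and MKN1, human lines derived from gastric carcinomas. Each line was transfected, using the Lipofectamine 2000 lipid reagent, with a small interfering RNA against HOXB9 (siHOXB9, labelled as knockdown) or with a scrambled control (siScramble, labelled WT), and each of these 4 groups is 1 library. One MKN1 control title spells the line MNK1, while its cell line label reads MKN1. No library has a replicate within its line and siRNA, so a difference within a line describes 2 libraries and has no replicate check. Levels are in FPKM (fragments counted on a gene, scaled by its length and by the mapped fragments of the library), as the authors computed them, so that levels of different genes can be set side by side per length.

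ERBB receptors are transmembrane tyrosine kinases that work in pairs. EGFR (ERBB1) binds AREG (amphiregulin), TGFA (transforming growth factor alpha), HBEGF, EREG (epiregulin) and BTC (betacellulin), of which HBEGF, EREG and BTC also bind ERBB4, and NRG1 (neuregulin 1) binds ERBB3 and ERBB4. ERBB2 has no known soluble ligand and serves as the favoured partner of the other receptors, and ERBB3 has very weak kinase activity and signals through its partner, mainly to phosphoinositide 3-kinase. The ligands are made as membrane-bound precursors and are released by metalloproteases such as ADAM17 and ADAM10. Antibodies against ERBB2 are used to treat gastric cancers that overexpress it.

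The knockdown was checked on HOXB9 itself. HOXB9 was at 16.4 FPKM with siScramble and 4.44 FPKM with siHOXB9 in AGS, and at 1.14 and 0.218 FPKM in MKN1, so it was lower with siHOXB9 in both lines and already low in the MKN1 control. Depth, recovered from the steps of low FPKM values, was between about 10610000 and 12960000 fragments per library. Between 12537 and 12770 rows reached 1 FPKM in a library. Of 7 epithelial markers, 7 reached 1 FPKM in both AGS libraries and 6 in both MKN1 libraries. Their summed level was 3851 and 4527 FPKM in AGS and 3482 and 3640 FPKM in MKN1. The keratins KRT8 and KRT18 were high in both lines. EPCAM, an epithelial adhesion molecule, was at 328 and 359 FPKM in AGS and at 2.14 and 2.70 FPKM in MKN1, and KRT19 at 838 and 1001 FPKM against 2.02 and 2.66 FPKM. The keratin KRT7 went the other way, at 3.73 and 4.98 FPKM in AGS and 1710 and 1629 FPKM in MKN1. CDH1, the epithelial cadherin, was low in AGS (1.63 and 3.28 FPKM) and was at 0.0752 and 0.285 FPKM in MKN1. Of 7 gastric lineage markers, 3 reached 1 FPKM in each AGS library and 1 in each MKN1 library, and PGC, a stomach pepsinogen, was listed at 0 in both MKN1 libraries.

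Both lines carried receptor transcripts, but in different proportions. In the AGS control the 4 receptors summed to 140.0 FPKM, and in the AGS knockdown to 134.6 FPKM, and ERBB2 (51.5% and 50.1% of the sum) and ERBB3 (41.7% and 43.6%) made up most of it. In MKN1 the sum was 86.8 and 91.7 FPKM, and EGFR alone made up 82.2% and 83.4% of it. Of the 10 members, 9 reached 1 FPKM in at least 1 library, and EGFR, ERBB2, TGFA and HBEGF did so in all 4. The ligand transcripts were scarce beside the receptors, with sums over the 6 ligands of 13.2 and 14.4 FPKM in AGS and 13.9 and 16.9 FPKM in MKN1. With the other 5 ligand genes of the family (EGF, EPGN, NRG2, NRG3 and NRG4) added, the sums were 13.8 and 16.3 FPKM in AGS and 23.7 and 25.6 FPKM in MKN1, so both MKN1 libraries were then above both AGS libraries.

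**Figure D1:**
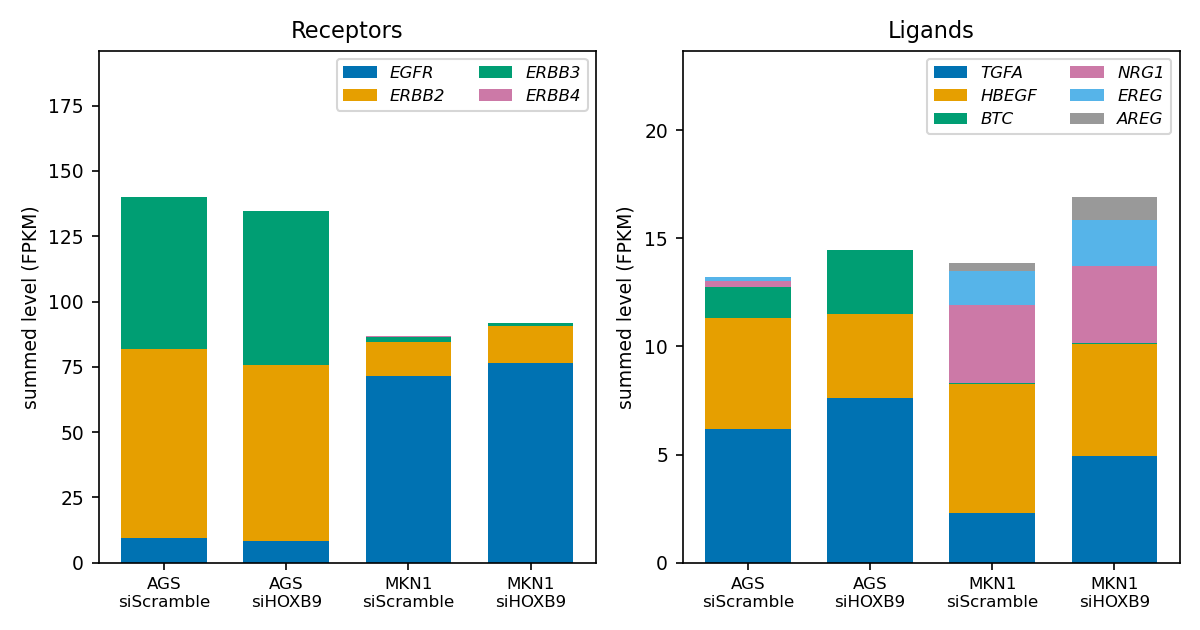
Summed FPKM of the 4 receptors (left) and 6 ligands (right) in each of the 4 libraries, with 1 colour per gene. ERBB2 and ERBB3 fill most of the AGS receptor bars and EGFR fills 82.2% and 83.4% of the MKN1 bars, while TGFA and HBEGF are the main ligands of AGS and NRG1 and EREG take larger shares in MKN1.

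EGFR is the receptor for most of the EGF family ligands. In AGS it was at 9.56 FPKM with siScramble and 8.43 FPKM with siHOXB9, and in MKN1 at 71.4 and 76.5 FPKM. Both MKN1 libraries were above the AGS libraries, by 7.47-fold with siScramble and 9.07-fold with siHOXB9. Among rows with at least 1 FPKM this placed EGFR at percentiles 39.0 and 36.6 in the AGS libraries and at 84.5 and 84.7 in the MKN1 libraries. Within a line the 2 libraries were close: the ratio of siHOXB9 to siScramble was 0.882 in AGS (95% counting interval 0.810 to 0.960) and 1.07 in MKN1 (1.04 to 1.11). In bulk RNA, fewer cells with a transcript and less of it per cell cannot be told apart. The intervals are exact binomial intervals on fragment numbers estimated from the recovered depth and the length of the principal transcript. They cover counting error only and carry no error between cultures. EGFR lies on chromosome 7 of GRCh38 from 55019021 to 55211628 on the forward strand, and its principal transcript has 28 exons and 9821 bases. The antisense gene EGFR-AS1, which shares exon sequence with it, stayed at or under 0.0683 FPKM in all 4 libraries.

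ERBB2, the partner receptor without a ligand, was at 72.1 and 67.4 FPKM in AGS (siScramble and siHOXB9) and at 13.3 and 14.3 FPKM in MKN1. Both AGS libraries were above both MKN1 libraries, by 5.43-fold with siScramble and 4.71-fold with siHOXB9. The siHOXB9 to siScramble ratio was 0.935 in AGS (counting interval 0.894 to 0.979) and 1.08 in MKN1 (0.965 to 1.20). Its locus, from 39687914 to 39730426 on the forward strand of chromosome 17, shares exon sequence with PGAP3 and MIEN1 on the opposite strand. No step that keeps the strand is described in the labels, so reads in the shared parts could not be assigned by strand. MIEN1, a membrane-anchored protein linked to cell migration, was at 80.0 and 59.1 FPKM in AGS and at 44.8 and 56.6 FPKM in MKN1, and PGAP3, an enzyme that remodels GPI anchors, at 5.53 and 8.21 FPKM against 1.64 and 2.49 FPKM.

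ERBB3, the neuregulin receptor with weak kinase activity, showed the widest gap between the lines of the 4 receptors. It was at 58.4 and 58.7 FPKM in AGS and at 1.63 and 0.892 FPKM in MKN1, a difference of 35.9-fold in the siScramble and 65.8-fold in the siHOXB9 libraries. In AGS the siHOXB9 to siScramble ratio was 1.01 (counting interval 0.964 to 1.05). In MKN1 it was 0.548 (0.392 to 0.777), on an estimated 106 and 53.6 fragments, and the change in log2(FPKM + 1) was -0.47. ERBB3 lies on chromosome 12 from 56076799 to 56103505, forward strand. It shares exon sequence with AC034102.2, a gene coding for protein on the same strand, whose part in the ERBB3 values was not tested. ERBB4, a receptor for neuregulins with an active kinase, reached 1 FPKM in no library: it was at 0.564 FPKM in MKN1 siScramble and was listed at 0 in MKN1 siHOXB9 and in both AGS libraries. A value listed at 0 in a table without counts can be a failed estimate, so no fold is given for it.

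**Figure D2:**
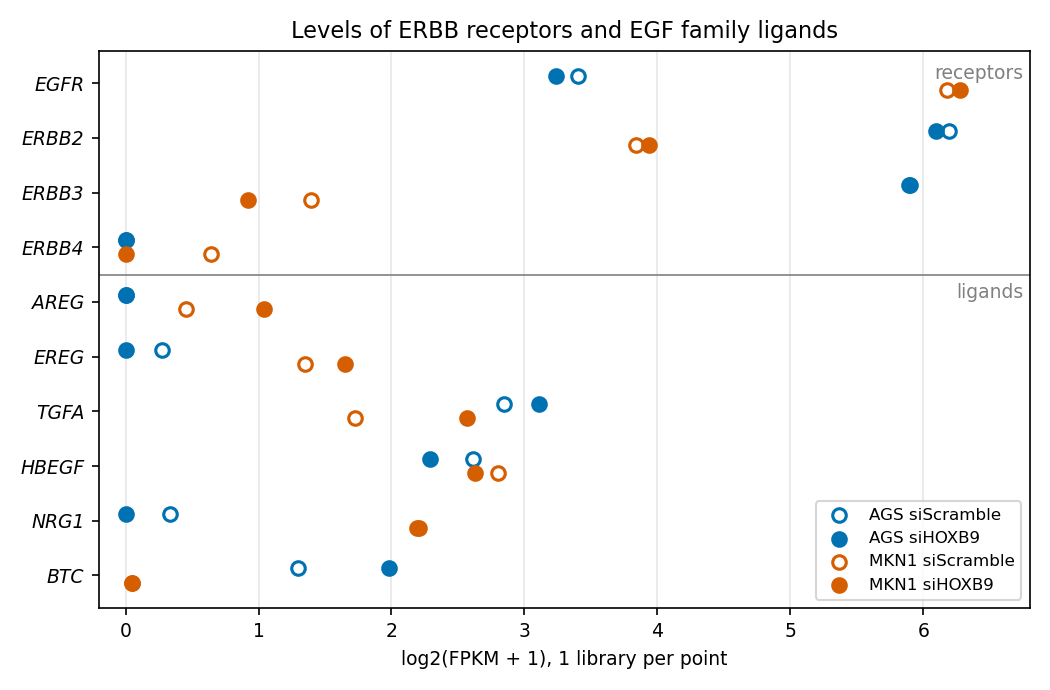
Level of each member on the log2(FPKM + 1) scale, with open points for siScramble, filled points for siHOXB9, blue for AGS and orange for MKN1, 1 library per point. EGFR lies right in MKN1 (71.4 and 76.5 FPKM), ERBB2 and ERBB3 lie right in AGS, and open and filled points of a colour lie close together for these 3 receptors except for ERBB3 in MKN1.

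The ligands TGFA and HBEGF were present in all libraries. TGFA was at 6.18 FPKM with siScramble and 7.61 FPKM with siHOXB9 in AGS, and at 2.30 and 4.94 FPKM in MKN1. The siHOXB9 library was the higher one in both lines, and both AGS libraries were above both MKN1 libraries. In MKN1 the ratio was 2.15 (counting interval 1.69 to 2.72) on an estimated 108 and 212 fragments, and in AGS it was 1.23 (1.06 to 1.43). HBEGF, whose precursor is also known as the diphtheria toxin receptor, was at 5.13 and 3.89 FPKM in AGS and at 5.97 and 5.17 FPKM in MKN1. The siHOXB9 library was the lower one in both lines, with ratios of 0.758 (0.582 to 0.983) and 0.865 (0.674 to 1.11), and the 4 values spanned a narrow range. TGFA lies on chromosome 2 from 70447280 to 70554193 and HBEGF on chromosome 5 from 140332843 to 140346631, both on the reverse strand.

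NRG1, the neuregulin of the list, was at 3.62 FPKM with siScramble and 3.57 FPKM with siHOXB9 in MKN1. In AGS its siScramble value was 0.258 FPKM and its siHOXB9 value was listed at 0, so both MKN1 libraries were above both AGS libraries. The MKN1 ratio was 0.986 (counting interval 0.697 to 1.39). The gene, on chromosome 8 from 31639386 to 32767959, has 22 annotated transcripts, with coding ones of 555 to 5931 bases, and the fragment numbers behind this interval assume the principal one of 2035 bases. In these libraries the line with the higher NRG1 level, MKN1, was the one with ERBB3 at 1.63 and 0.892 FPKM, and the line with high ERBB3, AGS, had NRG1 at or under 0.258 FPKM.

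A further 4 ligand genes lie near each other on chromosome 4. EPGN (epigen, 74308473 to 74315307), EREG (74365143 to 74388751) and AREG (74445134 to 74455009) follow each other on the forward strand, and BTC (74744759 to 74794686) lies beyond them on the reverse strand. EPGN is an EGFR ligand outside the 10 members. EREG was at 1.55 FPKM with siScramble and 2.14 FPKM with siHOXB9 in MKN1, and at 0.208 FPKM and listed at 0 in AGS. AREG was at 0.368 and 1.06 FPKM in MKN1 and listed at 0 in both AGS libraries. EPGN was at 4.56 and 5.18 FPKM in MKN1 and listed at 0 in both AGS libraries. EREG, AREG and EPGN were thus each higher in both MKN1 libraries than in both AGS libraries. The share of all rows separated in this way was not counted. BTC went the other way, at 1.46 and 2.94 FPKM in AGS and 0.0340 and 0.0368 FPKM in MKN1. The MKN1 values of BTC correspond to an estimated 1.00 and 0.997 fragments.

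Within a line, BTC in AGS had a ratio of 2.02 (counting interval 1.42 to 2.94) on an estimated 48.3 and 94.1 fragments. EREG in MKN1 had a ratio of 1.37 (1.02 to 1.88). AREG in MKN1 had a ratio of 2.88 (0.887 to 12.9), but on an estimated 4.17 and 11 fragments. Its interval includes 1, so a difference was not detectable at this depth. A separate row named AREGB, a symbol that RefSeq lists as a synonym of AREG, was at 0.178 FPKM in MKN1 siScramble and listed at 0 in the other libraries, and the division of reads between the AREG and AREGB rows is not described. The AREG value is therefore uncertain.

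The promoters of these neighbours are shown because EREG, AREG and EPGN were higher in MKN1 and BTC was higher in AGS. The EGFR promoter at the start of the gene is shown for comparison. Each is 250 bases before to 50 bases after the start of the RefSeq gene (GRCh38.p14), written in the direction of transcription. Of the 10 members, 8 have a promoter in the table used. Capitals mark 3 words on either strand. The TATA box was searched as TATAAA. The GC box was searched as GGGCGG. The core word of posterior HOX proteins was searched as TTTAT, and its match on the opposite strand can lie within the TATA box word.
EREG (chr4:74364895-74365194, forward strand): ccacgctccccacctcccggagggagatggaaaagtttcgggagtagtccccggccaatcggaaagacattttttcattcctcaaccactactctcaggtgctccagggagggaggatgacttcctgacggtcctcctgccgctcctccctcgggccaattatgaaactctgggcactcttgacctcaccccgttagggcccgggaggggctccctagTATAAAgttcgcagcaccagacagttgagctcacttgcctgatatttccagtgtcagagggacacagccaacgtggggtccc
AREG (chr4:74444886-74445185, forward strand): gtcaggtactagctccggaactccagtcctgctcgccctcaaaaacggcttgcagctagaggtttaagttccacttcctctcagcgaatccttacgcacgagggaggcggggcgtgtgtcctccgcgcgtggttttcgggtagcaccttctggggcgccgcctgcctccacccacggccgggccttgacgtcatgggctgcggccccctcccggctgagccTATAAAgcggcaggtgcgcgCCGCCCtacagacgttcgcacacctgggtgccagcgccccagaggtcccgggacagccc
EPGN (chr4:74308220-74308519, forward strand): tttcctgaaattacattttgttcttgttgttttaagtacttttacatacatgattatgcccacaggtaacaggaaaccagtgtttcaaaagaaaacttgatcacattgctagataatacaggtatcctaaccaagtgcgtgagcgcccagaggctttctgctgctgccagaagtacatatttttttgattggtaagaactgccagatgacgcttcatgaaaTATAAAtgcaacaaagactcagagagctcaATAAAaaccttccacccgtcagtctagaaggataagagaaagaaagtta
BTC (chr4:74794474-74794773, reverse strand): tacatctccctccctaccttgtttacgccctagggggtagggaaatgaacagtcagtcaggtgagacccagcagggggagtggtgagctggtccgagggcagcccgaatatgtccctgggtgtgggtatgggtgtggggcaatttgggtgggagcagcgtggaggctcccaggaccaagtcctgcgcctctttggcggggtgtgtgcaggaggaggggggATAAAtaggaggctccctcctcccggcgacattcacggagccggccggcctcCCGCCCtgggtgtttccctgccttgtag
EGFR (chr7:55018767-55019066, forward strand): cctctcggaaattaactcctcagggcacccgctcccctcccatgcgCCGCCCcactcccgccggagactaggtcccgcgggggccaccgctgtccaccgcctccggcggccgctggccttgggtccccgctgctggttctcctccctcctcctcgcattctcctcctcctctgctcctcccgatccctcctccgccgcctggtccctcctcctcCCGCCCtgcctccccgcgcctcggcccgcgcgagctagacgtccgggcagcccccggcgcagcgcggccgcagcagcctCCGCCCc

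TATAAA on the forward strand begins 32 bases before the start in EREG, 29 in AREG and 29 in EPGN, and it was not found in the BTC window or in this EGFR window. Of 35116 promoters of this length, 11.5% hold TATAAA on either strand, 45.0% hold GGGCGG and 34.9% hold TTTAT. The EGFR window shown has a GC content of 75.3%, 3 matches to GGGCGG and none to TTTAT. A second EGFR promoter (chr7:55109589-55109888), not shown, differs from it. It has a GC content of 42%, 2 matches to TATAAA, 3 to TTTAT and none to GGGCGG. EREG, AREG and BTC each have 1 match to TTTAT and EPGN has 2. The matches in EREG and AREG and 1 of those in EPGN lie within the TATA box word. The BTC match reads ATAAA in its window and begins 30 bases before the start. These matches describe the letters of the windows and were not tested as binding sites.

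No member passed the 2-fold rule after HOXB9 knockdown in either line. This rule is a change of at least 1 in log2((siHOXB9 FPKM + 1)/(siScramble FPKM + 1)) among rows that reach 1 FPKM in the control or the knockdown library. In AGS 0 of 6 measured members passed it, where 3.89% of all 13252 measured rows did. In MKN1 0 of 8 passed it, where 4.05% of 13122 rows did. HOXB9, the target of the siRNA, changed by -1.68 in AGS and passed the rule there. In MKN1 it changed by -0.81, on an estimated 30.5 and 5.36 fragments, and did not pass it. In AGS 3 members had positive and 3 negative changes (median -0.04, all rows -0.06), with BTC at 0.68 as the largest in size. In MKN1 5 were positive and 3 negative (median 0.10, all rows 0.09), with TGFA at 0.85 and AREG at 0.59 the furthest up and ERBB3 at -0.47 the furthest down. Over all measured rows, 43.0% were positive in AGS and 63.1% in MKN1. The added 1 FPKM shrinks changes of low genes: with 0.1 FPKM added, AREG (1.31) and TGFA (1.07) passed the rule in MKN1.

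**Figure D3:**
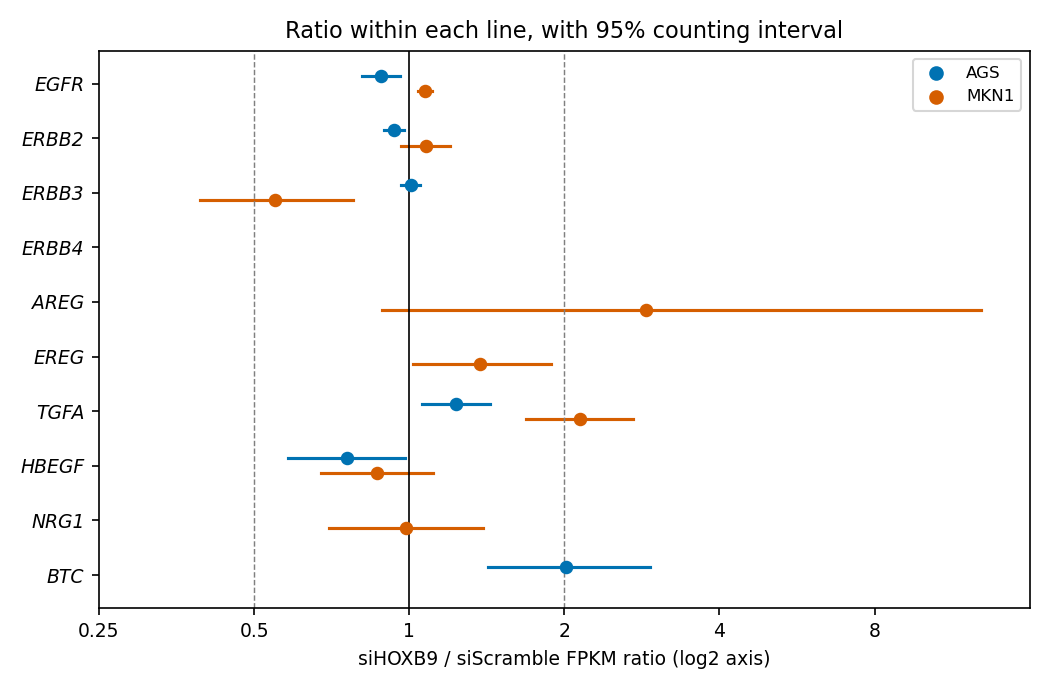
Ratio of siHOXB9 to siScramble FPKM for each member in AGS (blue) and MKN1 (orange) on a log2 axis, with 95% counting intervals as lines, for members with at least 1 FPKM in the line and above 0 in both libraries. TGFA in both lines, BTC in AGS, and EGFR and EREG in MKN1 lie to the right of 1 with intervals clear of it. ERBB3 in MKN1 and EGFR, ERBB2 and HBEGF in AGS lie to the left with intervals clear of it. The intervals cover counting error only, and dashed lines mark ratios of 0.5 and 2.

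To read the knockdown across AGS and MKN1 together, log2(FPKM + 1) was modelled in limma on the line and the siRNA, so that the error is the disagreement of the lines, moderated over all rows. For the siRNA term 0 of the 8 members tested had an adjusted p under 0.05, and 0 had an unadjusted p under 0.05. Among all 13758 rows 0.00727% (1 row) passed the adjusted threshold and 980 had an unadjusted p under 0.05. That row, RP11-192N10.2, is no member and is named here because it was the only one. HOXB9 itself had an estimate of -1.25 (SE 0.268) and an adjusted limma p of 0.355. The test thus did not call the target of the siRNA either. TGFA came nearest among the members, with an estimate of 0.56 (SE 0.238, higher with siHOXB9 in 2 of 2 lines), an unadjusted limma p of 0.0516 and an adjusted p of 0.703. HBEGF had an estimate of -0.25 (SE 0.213, lower in 2 of 2 lines, adjusted limma p 0.878) and BTC of 0.34 (SE 0.243, adjusted limma p 0.856). The estimates of EGFR (-0.03, SE 0.185), ERBB2 (0.0025, SE 0.179), ERBB3 (-0.23, SE 0.218), EREG (0.011, SE 0.233) and NRG1 (-0.17, SE 0.218) were of the size of their errors, and the sign of the ERBB2 and EREG estimates changed under other scalings. A p above the threshold does not show that levels were alike.

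The receptors EGFR, ERBB2 and ERBB3 differed between the lines. By limma, with an adjusted p under 0.05 and at least a 2-fold difference, 6 of 8 members were called, where 37.1% of all rows were. The filter bears on this count: NRG1 and EREG reached 1 FPKM only in MKN1 and BTC only in AGS, so these 3 entered the test through the line where they are high and had to differ, and their calls are a description. ERBB3 reached 1 FPKM in both AGS libraries and in 1 MKN1 library. Of the 4 members at 1 FPKM or more in all 4 libraries, EGFR and ERBB2 were called and TGFA and HBEGF were not. EGFR, NRG1 and EREG were higher in MKN1, the direction of 16.2% of all rows, and ERBB2, ERBB3 and BTC were higher in AGS, the direction of 20.9%. On the log2(FPKM + 1) scale the difference between MKN1 and AGS was -4.74 for ERBB3 (SE 0.218, adjusted p 3.85e-06), 2.91 for EGFR (SE 0.185, adjusted p 1.62e-05) and -2.26 for ERBB2 (SE 0.179, adjusted p 4.78e-05). It was 2.04 for NRG1, -1.59 for BTC and 1.36 for EREG, with adjusted limma p of 0.000215, 0.00118 and 0.00199. TGFA passed the p threshold with a difference under the size rule (-0.83, SE 0.238, adjusted limma p 0.0198). Its adjusted p was 0.162 without a filter, 0.0546 after centring, 0.0645 after quantile normalization and 0.0779 without the siRNA term, and with 0.1 FPKM added it was called (-1.0, adjusted limma p 0.0413). HBEGF did not pass it (0.26, SE 0.213, adjusted limma p 0.327). ERBB4 and AREG were too low to be tested. The median of the difference over all rows was -0.10, and its median size was 0.72. Over the 8 members the median size was 1.81. This value includes NRG1, EREG and BTC, which had to differ, so it cannot be compared with that of all rows.

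The 2 libraries of a line stand as its replicates in this test although they differ in siRNA. Nothing in the labels says that they came from separate cultures. With the siRNA term in the model, the error is the disagreement of the lines on the siRNA change, moderated over all rows. These p-values therefore do not measure the spread between replicate cultures. Without a filter on low values, EREG and BTC lost the call, with adjusted limma p of 0.0724 and 0.0720, while EGFR, ERBB2 and ERBB3 were at 0.0434 and NRG1 at 0.0469. Of the 7 epithelial markers, all tested between the lines, 4 were called higher in AGS, as ERBB2 and ERBB3 were, where 20.9% of all rows were. CDH1, 1 of the 4, reached 1 FPKM only in AGS and had to differ, so its call is a description. Only KRT7 was called higher in MKN1, as EGFR was (8.29, adjusted limma p 5.07e-07), where 16.2% of all rows were. The part of these markers in the receptor differences was not tested.

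**Figure D4:**
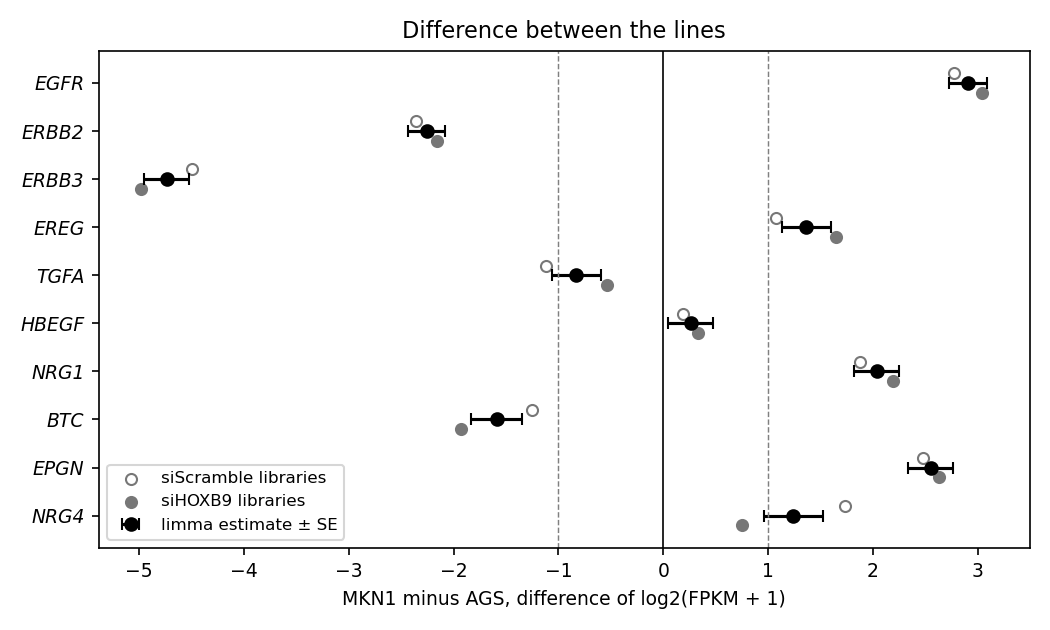
Difference between MKN1 and AGS on the log2(FPKM + 1) scale for the 8 members tested and for the ligands EPGN and NRG4, as the limma estimate with its SE (black) and as the difference of the siScramble (open) and siHOXB9 (filled) libraries. ERBB3 at -4.74 and EGFR at 2.91 mark the ends, and HBEGF lies nearest to 0.

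The order of the levels also differed by line. In AGS the order was ERBB2, ERBB3, EGFR, TGFA, HBEGF, BTC, and the 2 values of each gene did not overlap those of the next. In MKN1 EGFR came first and ERBB2 second, followed by HBEGF. TGFA (2.30 and 4.94 FPKM) overlapped NRG1, and EREG, ERBB3 and AREG followed, with the values of ERBB3 overlapping those of both EREG and AREG. Of the other family ligands, NRG4, a neuregulin that binds ERBB4, was at 0.576 and 1.29 FPKM in AGS and 4.25 and 2.84 FPKM in MKN1, and had a difference of 1.24 (SE 0.281, adjusted limma p 0.00727). EPGN had a difference of 2.55 (SE 0.213), but it entered the test only through its MKN1 libraries and stands against AGS values listed at 0, so this is a description. EGF, the founding ligand, stayed under 1 FPKM in all 4 libraries, NRG2 reached 0.155 FPKM at most, and NRG3 was listed at 0 throughout.

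Genes that act on the ligands were described from a list of 15 sheddases, their cofactors and related proteins. None passed the 2-fold rule with siHOXB9 in either line, where 3.89% of all rows did in AGS and 4.05% in MKN1. In AGS 3 of 11 measured were positive and 8 negative (median -0.12, all rows -0.06), where 43.0% of all rows were positive. In MKN1 12 of 14 were positive (median 0.29, all rows 0.09), where 63.1% of all rows were. ADAM17, the main sheddase of AREG, TGFA and HBEGF, was at 6.97 and 10.6 FPKM in MKN1 (0.55) and had a change of 0.28 in AGS. RHBDF1, an inactive rhomboid that supports ADAM17 maturation, was at 41.9 and 49.8 FPKM in AGS and 4.68 and 8.12 FPKM in MKN1. Both were higher in the siHOXB9 library of each line without reaching 2-fold. Between the lines, 9 of 13 were called, where 37.1% of all rows were. Of these 3 were higher in MKN1 (16.2% of all rows), among them TIMP3, an inhibitor of ADAM17 (3.92, SE 0.215, adjusted limma p 7.99e-06), and 6 were higher in AGS (20.9% of all rows), among them RHBDF1 (-2.70, SE 0.205). TIMP3 and ADAM12, both among the 3, reached 1 FPKM only in MKN1 and had to differ, so their calls are a description.

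Of 22 genes that restrain or clear the receptors, NEDD4, a ubiquitin ligase, passed the 2-fold rule in AGS (3.82 against 9.57 FPKM, 1.13), where 3.89% of all rows did, and none did in MKN1. LRIG1, which promotes breakdown of ERBB receptors, was at 25.1 and 14.6 FPKM in AGS (siScramble and siHOXB9) and at 3.68 and 1.78 FPKM in MKN1. Its change was -0.75 in each line, with an adjusted limma p of 0.534 over both. In MKN1 the phosphatase PTPN1 was at 29.4 and 14.6 FPKM (-0.96) and the receptor phosphatase PTPRK at 13.7 and 27.1 FPKM (0.93). Between the lines 5 of 22 were called, a smaller share than the 37.1% of all rows. All 5 were higher in AGS, which is near the 20.9% of all rows in that direction. None was called higher in MKN1, where 16.2% of all rows were. Among the genes named from these lists, TIMP3 and ADAM12 reached 1 FPKM only in MKN1 and CBLC, SHC2 and GSDMB only in AGS, so their line differences are a description. CBLC, a CBL family ubiquitin ligase, was at a mean of 101 FPKM in AGS and 0.116 FPKM in MKN1 (-6.51, SE 0.204, adjusted limma p 9.67e-07). SH3KBP1, an endocytic adaptor, LRIG1 and ERRFI1, an ERBB kinase inhibitor, were called with differences of -2.62, -2.48 and -1.72.

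Downstream, SHC2, an adaptor, was at 21.3 FPKM with siScramble and 54.6 FPKM with siHOXB9 in AGS (1.32). It was the gene of the adaptor and relay list past the 2-fold rule in AGS, of 40 rows measured there, where 3.89% of all rows passed it. The median change of the list was -0.0082 in AGS and 0.16 over the 41 rows measured in MKN1. Of 19 genes that ERK signalling is known to induce, 13 of 16 measured had negative changes in AGS (median -0.33, all rows -0.06) and 6 of 16 did in MKN1 (median 0.13, all rows 0.09). Over all measured rows, 43.0% were higher with siHOXB9 in AGS and 63.1% in MKN1. ETV4, an ETS transcription factor, was the gene of the 16 that passed the rule in AGS (58.3 against 23.5 FPKM, -1.28), where 3.89% of all rows did. It was at 66.7 and 67.8 FPKM in MKN1. FOS, an immediate early gene, was at 9.17 and 5.13 FPKM in AGS and 5.34 and 2.29 FPKM in MKN1, lower with siHOXB9 in both. For the siRNA term over both lines, no gene of these lists had an adjusted limma p under 0.05.

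Receptor partners had no gene past 2-fold with siHOXB9, where 3.89% of all rows were in AGS and 4.05% in MKN1. Between the lines 7 of 10 were called, where 37.1% of all rows were. CD44, a hyaluronan receptor that can present HBEGF, was at a mean of 23.5 FPKM in AGS and 243 FPKM in MKN1, the line with more EGFR. MUC1, a membrane mucin that binds ERBB receptors, was at 86.9 against 16.6 FPKM.

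**Figure D5:**
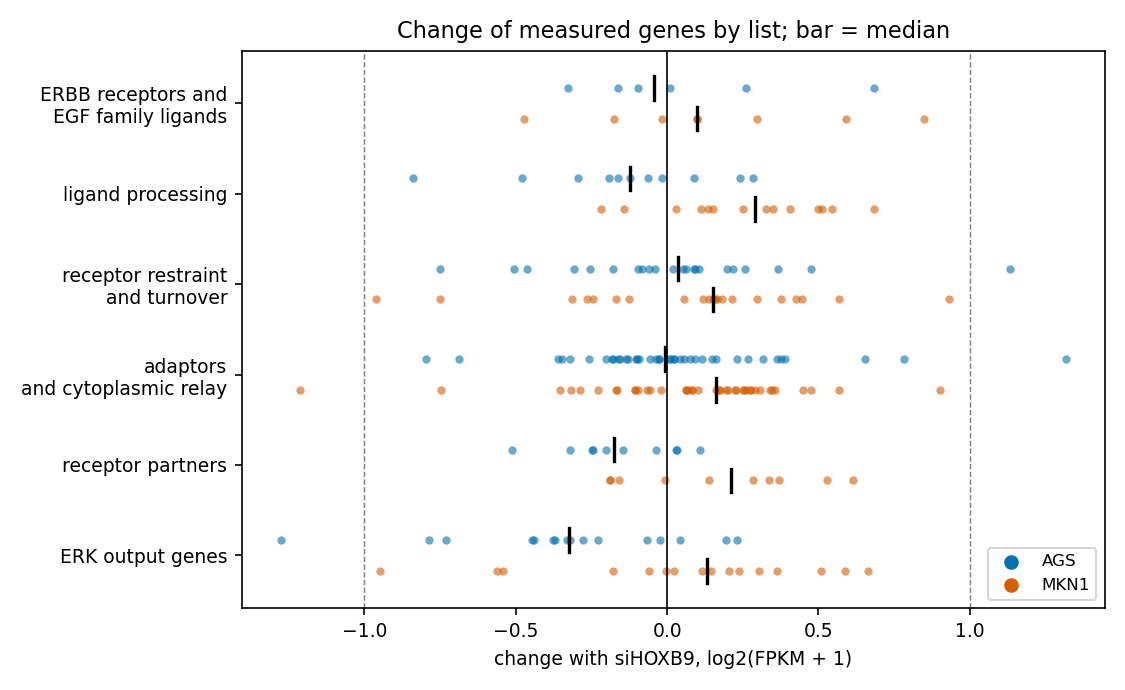
Change with siHOXB9 on the log2(FPKM + 1) scale for each measured gene of the members and of 5 lists, in AGS (blue) and MKN1 (orange), with the median as a black bar and dashed lines at -1 and 1. No member reaches a dashed line, and the ERK output genes have medians of -0.33 in AGS and 0.13 in MKN1.

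Neighbours of the receptors in the genome were read in the same way. Of the 3 tested genes beside EGFR, LANCL2 (2.02, SE 0.223), SEC61G, a translocon subunit (1.45, SE 0.168), and VOPP1 (1.22, SE 0.172) were all called higher in MKN1, as EGFR was, with adjusted limma p of 0.000249, 0.000316 and 0.000813. Higher calls in MKN1 made up 16.2% of all rows. Of 8 tested genes beside ERBB2, 4 were called higher in AGS, as ERBB2 was, where 20.9% of all rows were, and none higher in MKN1. They were GRB7, an adaptor that binds ERBB2 (-3.14), GSDMB, a gasdermin (-2.75), ORMDL3 (-1.77) and PGAP3 (-1.35). GRB7 was at 35.7 FPKM with siScramble and 20.1 FPKM with siHOXB9 in AGS, while ERBB2 was at 72.1 and 67.4 FPKM.

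The genes most like the 3 members with the widest range were found by the root mean square distance of log2(FPKM + 1) profiles, each centred on its mean over the 4 libraries, over 9677 candidates (genes coding for protein that reach 5 FPKM somewhere). Nearest to ERBB3 were IGFL2 (distance 0.0308), C6orf132 (0.0897) and OVOL2 (0.129). OVOL2, a zinc finger repressor that maintains epithelial state, was at 30.2 and 31.9 FPKM in AGS and 0.231 and 0.136 FPKM in MKN1. Nearest to EGFR were CALHM2 (0.0434), STC1 (0.0503) and CCT5 (0.0586), and nearest to ERBB2 were TMEM159 (0.0402), DOK1 (0.0519) and VRK3 (0.0529). With 4 libraries these profiles are mainly the difference between the lines.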

How the data were processed

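RNA of AGS and MKN1 cells, each with siScramble or siHOXB9, was measured as 4 libraries. The deposited matrix holds FPKM values that the authors computed, with 1 column per library and rows named by gene symbol. Of the symbols, 291 are on more than 1 row, and no member is among them. The submitters' processing notes name the genome builds GRCh38 and hg38. Aligner, counter and annotation: not given in the sources used here. FPKM is not a count, so log2(FPKM + 1) was analysed.

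Depth came from low values of genes with a single transcript in GENCODE 29. With lengths shortened by 260 bases, 64.2% to 66.1% of values came within 0.05 of whole fragments. Fragment numbers of members use the principal transcript and are estimates. Intervals are exact binomial (Clopper-Pearson) at 95%.

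Rows reaching 1 FPKM in 2 or more libraries (13758) entered limma 3.58.1 (R 4.3.3), with line and siRNA as terms, an intensity trend, 1 residual degree of freedom, two-sided tests and Benjamini-Hochberg adjustment over all rows. Tested on simulated data, the siRNA term recovered 1 of 200 rows changed by 1 and 199 of 200 changed by 2 on the log2 scale, with 1 and 36 false calls among 13758 rows. The line term recovered 57 and 199 of 200, with 12 and 15 false calls.

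Named were HOXB9, the 10 members, up to 4 genes of each list with the largest change and at least 5 FPKM, and the 3 nearest profiles of 3 members. In total 13 gene lists were used, with 3 names that had no row. PIK3R2 has 2 rows, both kept, and GRB7 is in 2 lists. A result on 1 gene of the adaptor and relay list is not reported here. Members and lists were chosen with earlier results of these data known. Alternatives were other pseudocounts, filters, scalings, size rules, variance options and model terms, and the siRNA arms alone. Promoters are from RefSeq.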

Additional observations from a re-analysis of the deposited data

Results flagged for a closer look

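EGFR, ERBB2, ERBB3 and the ligand NRG4 changed sign between the lines, with the only siHOXB9 library of one line above and that of the other below its control. The difference was not tested, since each line has 1 library per siRNA. On the log2(FPKM + 1) scale the change of EGFR was -0.16 in AGS and 0.10 in MKN1, and that of ERBB2 was -0.095 in AGS and 0.10 in MKN1. The EGFR change in MKN1 was 0.0033 after centring on the median row and -0.0034 after quantile normalization, and the ERBB2 change in AGS was 0.00051 with a common total, so these signs depend on the scaling. The change of ERBB3 was 0.0087 in AGS and -0.47 in MKN1, where the level was 1.63 and 0.892 FPKM. NRG4 was at 0.54 in AGS and -0.45 in MKN1, on an estimated 6.71 and 14.4 fragments in AGS and 44.1 and 27.0 in MKN1. The counting interval of its ratio included 1 in both lines (0.783 to 6.07 in AGS, 0.398 to 1.10 in MKN1). So did the intervals of ERBB3 in AGS and of ERBB2 in MKN1. FBXO22, which shares exon sequence with NRG4 on the opposite strand, was at 54.3 and 41.6 FPKM in AGS and 60.4 and 68.8 FPKM in MKN1, and its part in the NRG4 values was not tested.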

How the results depend on the processing

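No paired analysis by replicate number was run, since the labels number none; the siRNA test is blocked by line through its term for line. The count of 0 members past 2-fold in AGS became 1 (BTC) with a rule of 1.5-fold. In MKN1 it became 2 (AREG and TGFA) with 0.1 FPKM added or with a rule of 1.5-fold, which 13.4% of all rows passed in MKN1 and 14% in AGS. The count of 0 members for the siRNA term held under each of the 9 alternatives run, with a lowest adjusted limma p of 0.613 for a member, while over all rows between 0 and 8 were called. The siRNA estimate of EREG changed sign with 0.1 FPKM added (-0.59), a common total (-0.0088), centring (-0.0011) and quantile normalization (-0.0073), and that of ERBB2 with centring (-0.010). With a filter of 5 FPKM, 5 members were tested between the lines and 3 called, where 3794 of 10389 rows were. Without a filter 4 of 10 members were called, where 2750 of 24308 rows were. In the main setting 5109 of 13758 rows were called. Among pathway genes, with alternatives chosen after seeing the data, 3 of 100 passed 2-fold in AGS (all rows 3.89%), 5 with 0.1 FPKM added and 11 at 1.5-fold. In MKN1 1 of 104 passed (all rows 4.05%), 6 with 0.1 FPKM added, 3 under each other scaling and 11 at 1.5-fold. Between the lines 52 of 107 were called (all rows 37.1%) and 33 of 115 without a filter (all rows 2750 of 24308). Each group is 1 library, so none could be left out. Depth limits AREG and BTC in MKN1, and NRG1 and EREG in AGS.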

Other observations

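Several genes of the family were listed at 0 in 1 library of a line and above 0 in the other. EGF was listed at 0 in AGS siScramble and was at 0.521 FPKM in AGS siHOXB9, EREG and NRG1 were at 0.208 and 0.258 FPKM in AGS siScramble and listed at 0 in AGS siHOXB9, and ERBB4 was at 0.564 FPKM in MKN1 siScramble and listed at 0 in MKN1 siHOXB9. On the principal transcripts these values correspond to an estimated 30.1 fragments for EGF, 11.8 for EREG, 5.93 for NRG1 and 77.4 for ERBB4, and which transcripts the fragments came from cannot be read from this matrix.

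Of 10 markers of immune, endothelial and fibroblast cells with a row, 2 and 3 reached 1 FPKM in AGS and 6 and 3 in MKN1, with summed levels of 19.5 and 33.4 FPKM in AGS and 69.1 and 79.3 FPKM in MKN1. Their largest parts were the collagens COL1A1 (15.8 and 29.3 FPKM in AGS, 35.0 and 43.8 FPKM in MKN1) and, in MKN1, COL3A1 (17.4 and 20.2 FPKM). Of the immune markers, CD68 was at 3.30 and 2.67 FPKM in AGS and at 12.0 and 12.7 FPKM in MKN1. The lymphocyte markers CD3E and MS4A1 were listed at 0 in all 4 libraries. Both collagens and CD68 were higher in MKN1 than in AGS, as EGFR was, and their part in the EGFR difference was not tested.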
